A study of Mus musculus with 15 samples.

Results

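The 10 genes described here are known from fat cells: Adipoq, Plin1, Plin4, Cidea, Cidec, Fabp4, Lipe, Pck1, Retn and Ucp1. They were taken by name from the 40481 genes of a count table of mouse RPE/choroid, the retinal pigment epithelium with the vascular layer behind it. All 10 are in the table, and 8 of them were among the 17991 genes with enough counts to be tested. Plin1 and Ucp1 were not.

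RNA-seq libraries came from 7 control samples and 8 INK-ATTAC samples. Every mouse carried floxed Abca1 and Abcg1, which encode cholesterol exporters, together with LysM-Cre, a Cre driven from the lysozyme 2 locus that acts in macrophages and other myeloid cells, so the deletion is shared by both groups and is not compared here. The INK-ATTAC group also carried a transgene in which the p16Ink4a promoter drives a caspase 8 fusion protein, and all 15 samples are labelled with AP20187, the compound that dimerizes the fusion protein, given intraperitoneally; the design text describes dosing on alternate days for 3 months. Age and sex are not given in the labels, and nothing in them says that libraries of a group came from separate animals, so p-values measure the spread between these libraries. Total counts ran from 39121503 to 65065950 per library.

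White fat cells keep triglyceride in a large droplet that is coated by perilipins and CIDE proteins, break it down with lipases such as hormone-sensitive lipase, carry the released fatty acids on FABP4, and secrete hormones that include adiponectin and, in mice, resistin. Brown fat cells hold many small droplets and burn the fatty acids through UCP1. In the orbit, fat lies behind the globe beside the extraocular muscles, and several of these genes are also used by other cells: Fabp4 by capillary endothelium and macrophages, Lipe by steroid-making cells, Pck1 by liver and kidney, and Cidea by sebaceous glands.

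The label of the samples was checked against markers. The summed level of 10 RPE markers, among them Rpe65, Rlbp1 and Ttr, was 67247 to 88345 CPM (counts scaled to the library size) in the controls and 74131 to 98596 CPM in INK-ATTAC, so RPE transcripts were abundant in every library. The name "orbital fat" is not in the labels, which give RPE/choroid complex alone, and where the fat-cell transcripts came from was not tested. Adipoq and Retn, the hormone genes of the 10, were counted in all 15 libraries. Plin1, the perilipin of the fat cell droplet, had 1 to 20 counts per library, and Lep, which encodes leptin, had 0 to 8. The 5 genes Adipoq, Retn, Cidec, Pck1 and Fabp4 varied together between libraries. Lipe and Plin4 varied less, with a highest library 1.59 and 2.29 times the lowest, so the 10 names did not behave as a single signature. That grouping was made after the correlations were seen.

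The upstream sequences of the 4 genes with the widest spread between libraries are shown because these genes moved together. RefSeq promoters on GRCm38.p6 matched 8 of the 10 genes, all but Fabp4 and Cidea. Each run below is read 5′ to 3′ on the gene's strand and stops before the first annotated exon base; positions are counted backwards from -1 at the base before the RefSeq start. Capitals mark matches to 6 motifs searched on both strands. They are CCAAT (the box bound by NF-Y), TATAAA (the TATA box), AGGTCA (the hexamer of nuclear receptors), the PPAR direct repeat (a spaced pair of such hexamers), TTGCNNAA (a site of C/EBP factors) and ACGTCA (the core of the cAMP response element). No printed match overlaps another.
Adipoq, chr16:23146286-23146535, plus strand: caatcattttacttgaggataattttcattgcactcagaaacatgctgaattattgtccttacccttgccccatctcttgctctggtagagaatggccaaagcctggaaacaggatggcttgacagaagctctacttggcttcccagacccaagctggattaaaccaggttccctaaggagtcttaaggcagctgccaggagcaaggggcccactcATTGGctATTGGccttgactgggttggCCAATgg
Retn, chr8:3655520-3655769, plus strand: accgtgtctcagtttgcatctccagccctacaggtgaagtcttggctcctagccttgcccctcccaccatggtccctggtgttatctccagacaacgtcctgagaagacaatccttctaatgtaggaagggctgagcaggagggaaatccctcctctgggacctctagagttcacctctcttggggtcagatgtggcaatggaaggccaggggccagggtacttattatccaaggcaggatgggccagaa
Cidec, chr6:113435761-113436010, minus strand: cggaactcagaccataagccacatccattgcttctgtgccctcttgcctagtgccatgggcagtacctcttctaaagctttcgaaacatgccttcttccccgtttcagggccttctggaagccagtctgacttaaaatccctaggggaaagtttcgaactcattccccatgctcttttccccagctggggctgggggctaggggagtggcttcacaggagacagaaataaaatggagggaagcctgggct
Pck1, chr2:173152823-173153047, plus strand: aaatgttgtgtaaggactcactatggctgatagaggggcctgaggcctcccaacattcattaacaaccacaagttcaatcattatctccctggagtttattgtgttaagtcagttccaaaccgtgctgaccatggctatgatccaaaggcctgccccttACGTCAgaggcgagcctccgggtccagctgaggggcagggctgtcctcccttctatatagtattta

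The Adipoq window held CCAAT in either orientation at -34 to -30, -27 to -23 and -7 to -3. The Pck1 window held ACGTCA at -91 to -86. The Retn window and the Cidec window shown held none of the 6 motifs, and the window of the other Cidec start held TTGCNNAA at -198 to -191. Of 32851 RefSeq promoter windows of the same 250 bases, 33.8% held CCAAT, 12.4% TATAAA, 14.0% AGGTCA, 0.338% the PPAR direct repeat, 9.56% TTGCNNAA and 6.47% ACGTCA. None of the motifs was common to the 4 genes. The Adipoq window has 0 CpG pairs and the Retn window has 2, against a median of 6 over all windows, and their GC contents were 48.8% and 54.8%, against a median of 52.4%.

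Adipoq (chromosome 16, 23146536 to 23158028, plus strand, GRCm38) encodes adiponectin, a hormone made by fat cells. Its level was 0.166, 0.664 and 5.15 CPM as the lowest, median and highest of the 7 controls, and 0.286, 1.13 and 6.52 CPM in the 8 INK-ATTAC libraries. The highest control was control 7 and the highest INK-ATTAC library was INK-ATTAC 2, the next being INK-ATTAC 7 and INK-ATTAC 1 at 2.95 and 2.65 CPM. The groups overlapped. Over the groups, Adipoq was 1.27 ± 1.74 CPM (SD, n = 7) and 1.96 ± 2.11 CPM (SD, n = 8). The highest library was 39.3 times the lowest, which rested on 8 counts in control 2 and 310 in INK-ATTAC 2.

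Retn (chromosome 8, 3655770 to 3660110, plus strand) encodes resistin, a hormone that in mice is made mainly in white fat. It was 0.319, 0.811 and 5.12 CPM (lowest, median, highest) in the controls and 0.245, 1.38 and 6.501 CPM in INK-ATTAC. As for Adipoq, INK-ATTAC 2 and control 7 were first, here followed by INK-ATTAC 1 at 3.75 CPM and INK-ATTAC 7 at 2.69 CPM, and the groups overlapped. Retn counts per Adipoq count lay between 0.636 and 4.50 with a median of 1.02.

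Cidec (chromosome 6, 113424634 to 113435760, minus strand) encodes the CIDE protein that enlarges the fat cell droplet. Its level was 0.0683, 0.291 and 6.79 CPM (lowest, median, highest) in the controls and 0.123, 1.20 and 7.45 CPM in INK-ATTAC. Control 7 and INK-ATTAC 2 together held 55.8% of its summed CPM over the 15 libraries, against 47.6% for Adipoq, 45.0% for Pck1 and 43.4% for Retn. Cidec was the most variable of the 8 tested members between libraries of a group: its biological coefficient of variation, the edgeR estimate of relative spread beyond counting error, was 112% and stood at the 99.5th percentile of the 17991 genes. Pck1, Adipoq and Retn were at the 99.3rd, 99.0th and 98.8th percentiles.

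Pck1 (chromosome 2, 173153048 to 173159273, plus strand), the enzyme of gluconeogenesis that fat cells use to make glycerol for triglyceride, was low. It was 0, 0.291 and 1.04 CPM (lowest, median, highest) in the controls and 0.0818, 0.332 and 2.08 CPM in INK-ATTAC. Control 5 had 0 counts, which allows up to 0.0683 CPM, and the groups overlapped.

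Fabp4 (chromosome 3, 10204088 to 10208576, minus strand) encodes the fatty acid carrier of fat cells. Its level was 8.77, 10.7 and 20.4 CPM (lowest, median, highest) in the controls and 8.08, 12.02 and 22.7 CPM in INK-ATTAC. INK-ATTAC 2, control 7 and INK-ATTAC 7 were the highest, as for Adipoq and Pck1. The floor was different: no library had fewer than 350 counts of Fabp4, and its highest level was 2.81 times its lowest. Fabp4 counts per Adipoq count ran from 3.48 to 64.1 with a median of 14.6, lowest in INK-ATTAC 2 and highest in control 2, which had the least Adipoq. The 10 choroidal endothelial markers summed to 335 to 626 CPM in the controls and 353 to 619 CPM in INK-ATTAC; the share of Fabp4 from those cells was not tested.

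Lipe (chromosome 7, 25379527 to 25398710, minus strand), which encodes hormone-sensitive lipase, had the least spread between libraries of the 8 tested members. It was 13.5, 19.0 and 21.2 CPM (lowest, median, highest) in the controls and 16.5, 18.3 and 21.5 CPM in INK-ATTAC. Controls 4 and 5 were the low libraries at 13.5 CPM each, and the highest library was only 1.59 times the lowest. Its exons overlap those of 4732471J01Rik on the other strand over 918 bases, 15.6% of its exonic length, and the strand setting of the counting is not given, so reads of the overlap cannot be assigned to either gene.

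Plin4 (chromosome 17, 56100591 to 56109803, minus strand) encodes a perilipin found on small nascent droplets. Its level was 2.43, 4.94 and 5.57 CPM (lowest, median, highest) in the controls and 3.41, 4.51 and 5.34 CPM in INK-ATTAC. Control 4 and control 5 were again among the 3 lowest libraries, with INK-ATTAC 4. Lipe and Plin4 stood at the 30.7th and 56.7th percentiles of between-library variation.

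Cidea (chromosome 18, 67343604 to 67367785, plus strand), a CIDE protein of brown fat cells and of lipid-secreting glands, followed Adipoq only in part. It was 0.137, 0.451 and 0.953 CPM (lowest, median, highest) in the controls and 0.204, 0.710 and 1.58 CPM in INK-ATTAC. INK-ATTAC 2 was the highest, but the next was INK-ATTAC 3 at 1.497 CPM, a library with 0.425 CPM of Adipoq. Control 7, with 5.15 CPM of Adipoq, had 0.520 CPM of Cidea. Between-library variation of Cidea was at the 94.9th percentile.

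Plin1 (chromosome 7, 79720218 to 79732903, minus strand) was 0.0325, 0.1003 and 0.243 CPM (lowest, median, highest) in the controls and 0.0154, 0.148 and 0.421 CPM in INK-ATTAC. Control 7 had 2 counts of Plin1 beside 317 of Adipoq, and INK-ATTAC 2 had 20 beside 310. Ucp1 (chromosome 8, 83290352 to 83298452, plus strand), the heat-producing carrier of brown fat, had 0 counts in 11 of 15 libraries. It had 2, 2 and 6 counts in controls 4, 5 and 7 and 1 count in INK-ATTAC 6. A count of 0 allows up to 0.0636 CPM in the library where that limit is highest.

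**Figure D1:**
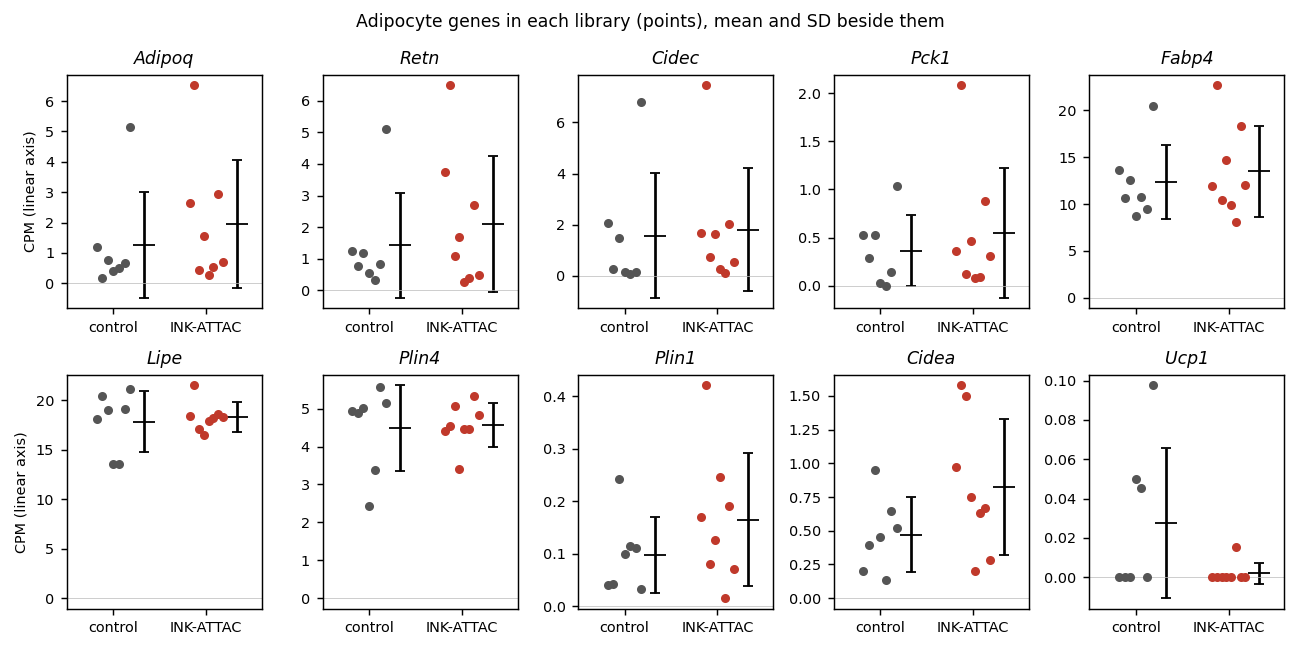
Level of each of the 10 genes in CPM on linear axes, with 1 point per library, 7 control and 8 INK-ATTAC, and the group mean and SD beside the points. Control 7 (5.15 CPM of Adipoq) and INK-ATTAC 2 (6.52 CPM) stand above the rest of their groups for Adipoq, Retn, Cidec, Pck1 and Fabp4, whereas Lipe lies between 13.5 and 21.5 CPM over both groups.

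Levels were set against each other per kilobase of annotated exon. The mean over the 15 libraries was 3.08 CPM per kilobase for Lipe, 2.89 for Fabp4, 1.18 for Adipoq, 1.13 for Retn, 0.917 for Cidec, 0.783 for Plin4, 0.592 for Cidea, 0.135 for Pck1, 0.0287 for Plin1 and 0.00850 for Ucp1. The step from Fabp4 to Adipoq and the step from Cidea to Pck1 held in 15 of 15 libraries. No other step held in all libraries. Lipe was above Fabp4 in 10 of 15, Adipoq above Retn in 9, Retn above Cidec in 12, Cidec above Plin4 in 6, Plin4 above Cidea in 11, Pck1 above Plin1 in 12 and Plin1 above Ucp1 in 11. The annotated exons of Fabp4 together span 4489 bases, the whole length of the gene, so its level per kilobase is understated for the spliced transcript. The length of every gene joins all its annotated exons, so levels of other genes may be understated too. The order therefore also depends on the annotation.

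**Figure D2:**
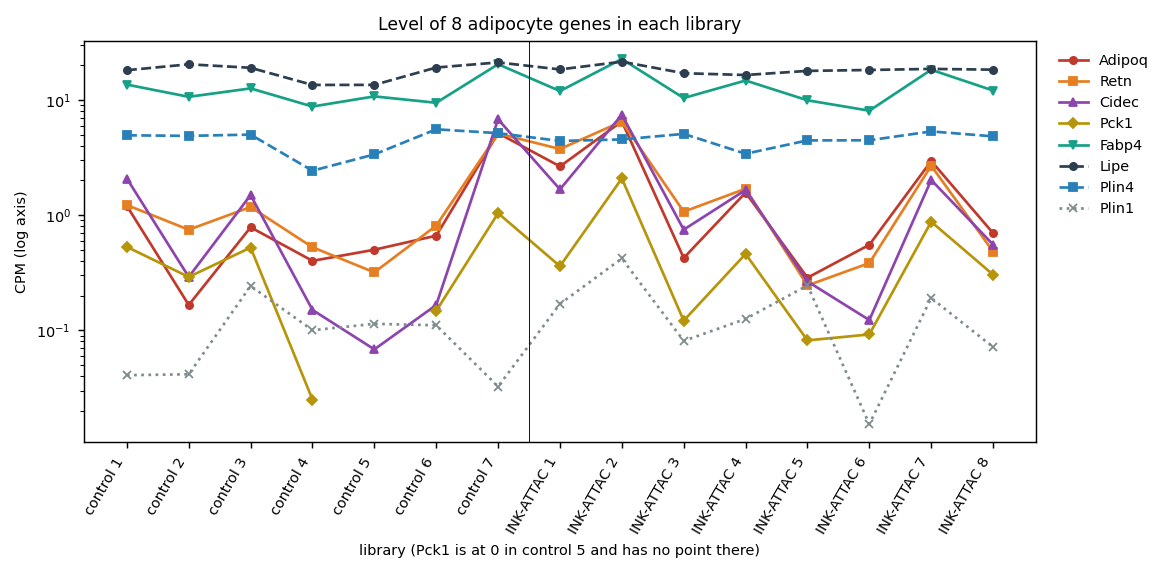
CPM on a log axis for 8 of the genes across the 15 libraries, 1 line per gene, with controls left and INK-ATTAC libraries right of the vertical line. Adipoq, Retn, Cidec, Pck1 and Fabp4 peak together in control 7 and INK-ATTAC 2, and Plin1 is low in control 7 at 0.0325 CPM. Lipe and Plin4 range less, Plin4 from 2.43 to 5.57 CPM.

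Whether the genes vary together was asked for all 45 pairs, over the 15 libraries, on log2(CPM + 1). The libraries share their depth scaling, and Benjamini-Hochberg adjustment was made over the 45 pairs with 100000 permutations each, so the smallest permutation p is 1e-05. Adjusted p was under 0.05 for 12 pairs by Pearson's r, 12 by Spearman's rho and 11 by both. All 10 pairs among Adipoq, Retn, Cidec, Pck1 and Fabp4 were among them, with r from 0.858 to 0.955, rho from 0.775 to 0.939, and adjusted permutation p from 7.5e-05 to 4.05e-04. Adipoq and Retn had the highest r, 0.95 (rho 0.85), and Fabp4 and Retn the lowest. Without control 7 and INK-ATTAC 2, a choice made after the values were seen, r was 0.676 to 0.899, and all 10 pairs passed by Pearson's r and 9 by Spearman's rho.

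Across the other members there were few relations over all 15 libraries. Of 25 pairs between these 5 genes and the other 5, 1 passed by Pearson's r, Lipe with Pck1 at r = 0.66 (rho 0.68, adjusted permutation p = 0.0379). That call was lost without the 2 libraries farthest from the median of Lipe (r = 0.63, adjusted permutation p = 0.0837) and without control 7 and INK-ATTAC 2 (r = 0.52, adjusted permutation p = 0.185). It held on log2(CPM + 0.1) (r = 0.75, adjusted permutation p = 0.00371) and with RLE scaling (r = 0.68, adjusted permutation p = 0.0281). With group means removed it also held (r = 0.66, adjusted permutation p = 0.00585), and Lipe with Retn passed too (r = 0.55, adjusted permutation p = 0.0451). Of the 10 pairs among the other 5, Plin4 with Lipe passed at r = 0.80 (rho 0.62, adjusted permutation p = 0.0036). Without the 2 libraries farthest from the median of Plin4 the r was 0.44 (adjusted permutation p = 0.353), so the relation rests on those libraries. It did not rest on control 7 and INK-ATTAC 2, without which r was 0.86 (adjusted permutation p = 0.00399). Adipoq with Plin1 had r = 0.42 (rho 0.22), with Cidea 0.44 (rho 0.47), with Lipe 0.50 (rho 0.48), with Plin4 0.22 (rho 0.26) and with Ucp1 0.23 (rho -0.09), and none of these 5 passed. Cidea with Retn passed by Spearman's rho, 0.65 (adjusted permutation p = 0.0415), and not by Pearson's r, 0.59 (adjusted permutation p = 0.0720). Without control 7 and INK-ATTAC 2, Ucp1 passed by Pearson's r with Plin4 (-0.81) and Lipe (-0.88), with adjusted permutation p of 0.0185 and 0.0199. By Spearman's rho it passed there with Cidec (-0.72) and Pck1 (-0.69). These relations rest on 2 counts of Ucp1 in each of controls 4 and 5 and 1 in INK-ATTAC 6.

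**Figure D3:**
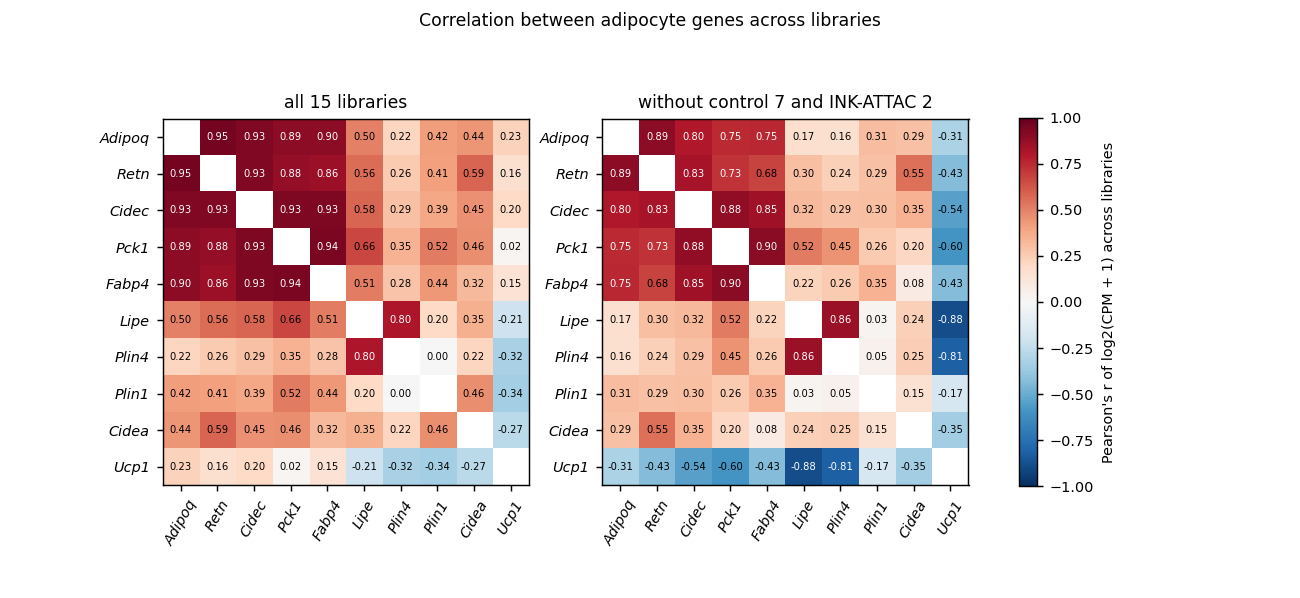
Pearson's r of log2(CPM + 1) for every pair of the 10 genes, as colour and printed value, over all 15 libraries on the left and without control 7 and INK-ATTAC 2 on the right. Adipoq, Retn, Cidec, Pck1 and Fabp4 form a block with r from 0.858 to 0.955 on the left and from 0.676 to 0.899 on the right.

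Genes outside the 10 whose mean log2 CPM was not below 0 were ordered by the Pearson r of their log2 CPM with Adipoq. These are descriptions over 15 libraries that share their scaling. The 10 highest were Car3 (0.91), Cfd (0.91), Thrsp (0.90), Hp (0.87), Cyp2e1 (0.86), Med20 (0.84), Nyap2 (0.80), Scd1 (0.77), Dnajc16 (0.77) and Clcn6 (0.74). Car3, the carbonic anhydrase abundant in fat and muscle, ran from 2.81 to 52.7 CPM and was highest in control 7. Cfd, which encodes adipsin, the complement factor D secreted by fat cells, ran from 1.75 to 55.6 CPM and was highest in INK-ATTAC 2. Thrsp, an activator of lipogenesis, ran from 8.87 to 21.8 CPM. Some of the others ranged little: Med20 from 22.6 to 29.2 CPM, Dnajc16 from 16.7 to 23.3 CPM and Clcn6 from 17.3 to 22.7 CPM. Over all 17991 genes, Retn, Fabp4, Cidec and Pck1 stood at places 5, 7, 9 and 18 in this order, and Lipe, Cidea and Plin4 at 796, 801 and 3959. Adig, with a mean log2 CPM of -1.94, fell below the limit of 0 and stood at place 3 over all genes (r = 0.91).

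The group comparison asks whether the transgene, with AP20187 given to both groups, goes with a different level of these genes. In edgeR's quasi-likelihood test with Benjamini-Hochberg adjustment over 17991 genes, 0 of the 8 tested members had an adjusted p under 0.05, and 0 of 17991 genes did, 0%. Without adjustment, 745 genes, 4.14%, and 0 of the 8 members had p under 0.05, and DESeq2 called 6 genes, 0.0334%, none of them a member. The log2 fold change of INK-ATTAC against control was above 0 in 8 of 8 members, against 49.8% of all genes tested, with a median of 0.36 against -0.00097. Since 5 of the 8 vary together, their signs are not independent. Without INK-ATTAC 2 the count was 4 of 8 and the median 9.4e-05, without control 4 or without control 5 the count was 5 of 8, and without control 7 the median was 0.95. The count was also 4 of 8 with limma-voom and sample quality weights, and it was 8 of 8 without both INK-ATTAC 2 and control 7. In the authors' deposited comparison, Lipe, Plin4, Fabp4 and Retn were below 0, as given below. No member had groups that did not overlap, against 4 genes, 0.0222%, of those tested.

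By role, the secreted hormones Adipoq and Retn had log2 fold changes of 0.60 (SE 0.71) and 0.55 (SE 0.67), each with an edgeR adjusted p of 1.00. Of the CIDE proteins, Cidea had 0.79 (SE 0.44), the largest of the 8, and Cidec 0.18 (SE 0.87). Pck1 had 0.54 (SE 0.76), Fabp4 0.13 (SE 0.21), Lipe 0.04 (SE 0.10) and Plin4 0.03 (SE 0.16). The log2 fold change was above 0.5 in 4 of 8 members, Cidea, Adipoq, Retn and Pck1, against 3.11% of all genes, a limit chosen after the values were seen. These 4 genes stood at the 94.9th to 99.3rd percentiles of between-library variation, so the share over all genes is not a like background. Their SEs were 0.44 to 0.76, and none of the 4 differences exceeded the spread between libraries by the test. For Adipoq the value was 0.01 without INK-ATTAC 2 and 1.65 without control 7, and for Cidec -0.68 and 1.34. Without both libraries, Adipoq was at 1.05 and Retn at 0.85. In bulk tissue, a different number of fat cells and a different amount of RNA per fat cell cannot be told apart.

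For Lipe and Plin4 the data are more precise. Lipe was 17.8 ± 3.12 CPM (SD, n = 7) in the controls and 18.3 ± 1.48 CPM (SD, n = 8) in INK-ATTAC. Plin4 was 4.48 ± 1.13 CPM (SD, n = 7) and 4.57 ± 0.574 CPM (SD, n = 8). Plin1 was 0.0975 ± 0.0732 CPM (SD, n = 7) and 0.165 ± 0.127 CPM (SD, n = 8), with an exact two-sided permutation p over all 6435 splits of 0.246 for the mean log2(CPM + 1). Ucp1 had 10 counts in the controls, 6 of them in control 7, and 1 count in INK-ATTAC, with an exact permutation p of 0.128. The authors' deposited table lists 5 of the members, Lipe, Plin4, Cidec, Fabp4 and Retn. The log2 fold changes in the authors' deposited table were -0.048, -0.067, 0.14, -0.025 and -0.037 in that order, with adjusted p from 0.921 to 0.995, against 3 of 14491 entries called, 0.0207%. Lipe, Plin4, Fabp4 and Retn were thus below 0 there and above 0 in the edgeR test here, and Cidec was above 0 in both.

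**Figure D4:**
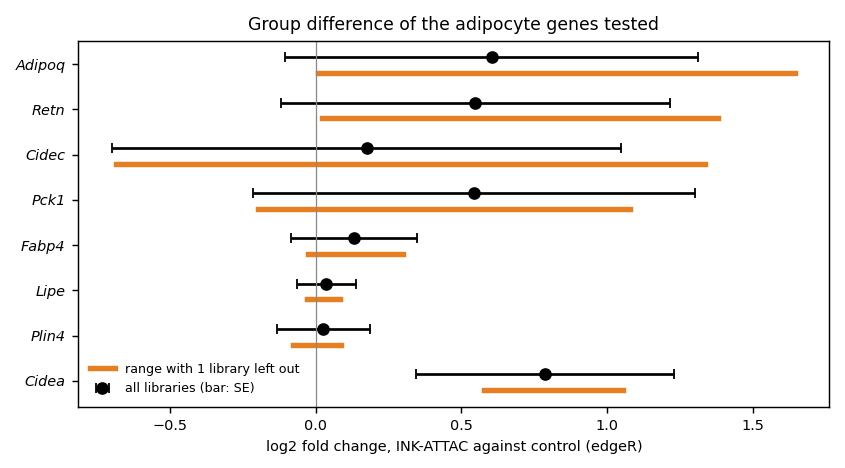
Log2 fold change of INK-ATTAC against control for the 8 genes tested in edgeR, as points with SE bars, and below each the range of values with 1 library left out in turn. Cidea lies highest at 0.79, the range of Adipoq runs from 0.01 to 1.65, and Lipe and Plin4 stay near 0.

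Of 10 marker lists, skeletal muscle, lens and rod photoreceptor had all tested genes on the same side of 0, and their part in the members' difference was not tested. Skeletal muscle markers, such as Acta1, Ckm and Myh4, summed to 254 to 2197 CPM in the controls and 622 to 3175 CPM in INK-ATTAC, with a log2 fold change above 0 in 12 of 12 genes. Lens markers summed to 2.51 to 804.7 CPM and 4.86 to 3910 CPM, with 8 of 8 genes tested above 0 and a median log2 fold change of 3.05. INK-ATTAC 3 was the highest library for the lens gene Cryaa, at 2003 CPM against a median of 25.4 CPM over the 15 libraries. Crybb2 was also highest there, at 1467 CPM against a median of 24.9 CPM. Rod photoreceptor markers summed to 2497 to 4905 CPM and 2024 to 4290 CPM, with 0 of 10 above 0 and a median of -0.23. No gene of these lists had an edgeR adjusted p under 0.05. The mean level of the skeletal muscle markers had a correlation with Adipoq over the 15 libraries of r = 0.16 (rho 0.36, permutation p = 0.585, adjusted p = 0.919 over 100 pairs of members and marker lists). Without the 2 libraries farthest from the median r was 0.33. None of the 100 pairs had an adjusted p under 0.05. The largest for Adipoq were Meibomian and sebaceous gland markers, with r = 0.68 (rho 0.45, permutation p = 0.00545, adjusted p = 0.149) and 0.29 without the 2 libraries, and rod photoreceptor markers, with r = -0.67 (rho -0.60, permutation p = 0.00595, adjusted p = 0.149) and -0.37 without them. Elovl3, a fatty acid elongase of sebaceous glands and brown fat, reached 2.86 CPM in INK-ATTAC 2 and had a median of 0.122 CPM. Some other genes of the sebaceous list were also highest in INK-ATTAC 2, but more of them were highest in other libraries. Ucp1 had 0 counts in INK-ATTAC 2. Elovl3 alone therefore does not describe either list.

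Sex is not labelled, so libraries were also set in Xist classes read from the data, low in controls 1 to 3 and INK-ATTAC 1 to 4 and high in the others. Of 17991 genes, 32, 0.178%, differed between the classes in edgeR with an adjusted p under 0.05, and none was a member. Cidea had a log2 fold change of -0.89 for high against low (SE 0.41, edgeR adjusted p = 0.467). For the interaction of group and class, 0 of 17991 genes, 0%, passed, with 858 at an unadjusted p under 0.05. Adipoq had an interaction of -2.55 (SE 1.40, adjusted p = 0.876) and Retn -2.49 (SE 1.27, adjusted p = 0.876). In the low class alone Adipoq was 0.718 ± 0.522 CPM (SD, n = 3) in the controls and 2.79 ± 2.65 CPM (SD, n = 4) in INK-ATTAC, and in the high class 1.68 ± 2.32 CPM (SD, n = 4) and 1.12 ± 1.23 CPM (SD, n = 4). These means include INK-ATTAC 2, at 6.52 CPM, in the low class and control 7, at 5.15 CPM, in the high class. The interaction was not tested without these libraries.

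The rest of the fat-cell program was described by 6 lists. Across their 62 genes tested, 0 had an adjusted p under 0.05 in edgeR in either direction, and every adjusted p was 1.00. Of 6 genes tested in the list of adipokines and secreted factors, 4 had a log2 fold change above 0 (median 0.16): Cfd was at 0.76 (SE 0.73), and Nnat, which encodes a small membrane protein, at -1.47 (SE 0.52). Nnat was highest in control 4, at 20.5 CPM. Of 11 genes of the droplet and lipolysis, 8 were above 0 (median 0.04), with G0s2, an inhibitor of the lipase ATGL, at 0.28 (SE 0.10) and Pde3b, the phosphodiesterase through which insulin restrains lipolysis, at -0.65 (SE 0.28).

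Of 14 genes of fatty acid and triglyceride synthesis, 9 were above 0 (median 0.04), and Agpat2, an acyltransferase of triglyceride synthesis, had the lowest p, with a log2 fold change of 0.17 (SE 0.09). Of 10 genes of fatty acid uptake and glycerol supply, 7 were above 0 (median 0.06). Lpl, the lipase that takes fatty acids from circulating lipoproteins, was at 50.5 ± 8.13 CPM (SD, n = 7) and 63.2 ± 9.17 CPM (SD, n = 8). Its log2 fold change was 0.32 (SE 0.11), with an edgeR p of 0.00844, the lowest of the 62 genes, and an adjusted p of 1.00. Of 9 transcription factors, 4 were above 0 (median -0.05), and Pparg, the master regulator of fat cell formation, was at 0.03 (SE 0.12). Of 12 genes of brown and beige fat, 8 were above 0 (median 0.06), and Cox7a1, a cytochrome oxidase subunit also made in muscle, was at 0.69 (SE 0.32). Of the 62 genes, 4 had an r of at least 0.7 with Adipoq (6.45%), against 0.122% of all genes tested outside the 10, a limit chosen after the values were seen.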

How the data were processed

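RNA from 7 control and 8 INK-ATTAC samples was sequenced. Per the labels' protocols, tissue went into TRIzol, RNA was purified with NucleoSpin and cDNA made with SMARTer. Per the submitters' processing notes, bcl2fastq, DRAGEN, edgeR and limma were used, on build GRCm38; none of their versions, nor the counter, strand setting or annotation, is given in the sources used here. The authors deposited raw counts per gene, not normalized per the file headers; 276 repeated entries were collapsed, which left 40481 genes. They also deposited a comparison table, per the file headers with log2 CPM and log2 fold changes, p-values and adjusted p-values, and scores that were not used.

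In edgeR 4.0.16 under R 4.3.3, counts were TMM-scaled, filtered with filterByExpr and tested by quasi-likelihood with no covariate, after the method was tested on simulated data. The simulated biological coefficient of variation followed the trend over genes, which was 0.360 to 0.456 for Adipoq, Retn, Cidec and Pck1. Their own values were 0.852 to 1.12, so the simulation does not cover recovery of differences in these genes. Adjustment was by Benjamini-Hochberg over 17991 genes at a threshold of 0.05. CPM are on TMM library sizes. Members that failed the filter had an exact permutation test over 6435 splits. Correlations used log2(CPM + 1) and 100000 permutations. DESeq2 1.42.0, limma 3.58.1, RLE scaling, other filters, covariates and leaving out libraries were alternatives. Same-group libraries were compared in 49 pairs, and none repeated another (lowest chi-square per gene 30.1). Positions are from GENCODE (GRCm38), and promoters from RefSeq (GRCm38.p6). Limits for a count of 0 are 3 counts and cover counting error only, since the reads carry no molecular identifiers that the sources mention.

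All 10 members are named. Of each pathway list at most 4 genes of lowest p are named, of each marker list at most 3 genes, and the 10 genes outside the members with the highest r with Adipoq. Lep, Pparg, Elovl3, Cryaa and Crybb2 were named after their values were seen. The members and lists were chosen with earlier results of these data known.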

Additional observations from a re-analysis of the deposited data

Results flagged for a closer look

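Of 20 combinations of member and group, 10 had a highest or lowest library that stood apart from the others by Dixon's criterion on CPM. The criterion's chance rate of about 1 in 20 assumes normally distributed values, which was not checked for these CPM. The number flagged is therefore not set against that rate. Control 7 stood apart for Adipoq at 5.15 CPM (next 1.20), for Cidec at 6.79 CPM (next 2.08), for Fabp4 at 20.4 CPM (next 13.6) and for Retn at 5.12 CPM (next 1.22). INK-ATTAC 2 stood apart for Adipoq at 6.52 CPM (next 2.95), for Cidec at 7.45 CPM (next 2.02), for Pck1 at 2.08 CPM (next 0.877) and for Lipe at 21.5 CPM (next 18.6). Control 3 stood apart for Plin1 at 0.243 CPM (13 counts), and INK-ATTAC 6 for Ucp1 at 0.0154 CPM, a single count. Every other INK-ATTAC library had 0 counts of Ucp1, so any count there would have been flagged. The genes Adipoq, Cidec, Fabp4 and Retn are correlated, so their flags are not separate.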

How the results depend on the processing

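Of the values tallied under alternatives other than leaving out 1 library, 174 kept their direction and their side of the threshold, 4 moved and 8 reversed. Not in this tally are the pairs Lipe with Pck1 and Plin4 with Lipe, whose calls were lost under some alternatives, as given above. Genes called were 0 in the main test, 6 with DESeq2 and 2 with limma-voom and sample quality weights. Members above 0 were 8 of 8, 4 of 8 with quality weights and 5 of 5 where CPM over 1 in 7 libraries was required. With quality weights the log2 fold change was -0.062 for Plin4, -0.018 for Fabp4, -0.044 for Lipe and -0.052 for Retn. Cidec was -0.074 with the endothelial level as covariate and -0.028 with the Xist level. The r of Adipoq with Ucp1 was 0.23, and -0.31 both without the 2 libraries farthest from the median and without control 7 and INK-ATTAC 2, which are the same libraries. The cause of these changes was not tested.

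Leaving out 1 library in turn, genes called stayed at 0 to 0, members above 0 were 4 to 8, and their median was 9.4e-05 to 0.95. The log2 fold change was 0.01 to 1.65 for Adipoq, -0.078 to 0.086 for Plin4, 0.58 to 1.06 for Cidea, -0.68 to 1.34 for Cidec, -0.026 to 0.30 for Fabp4, -0.029 to 0.083 for Lipe, -0.20 to 1.08 for Pck1 and 0.02 to 1.38 for Retn. The mean log2(CPM + 1) difference was 0.04 to 0.11 for Plin1 and -0.04 to -0.02 for Ucp1. The lowest values of Adipoq, Cidec, Pck1 and Retn came without INK-ATTAC 2 and the highest without control 7.

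The labels do not say that equal replicate numbers share an animal or litter. Libraries with the same title number correlated at -0.10 to 0.29 in their deviations from the group means. Differently numbered libraries were not set beside them, so whether the numbers pair the libraries cannot be decided from these values. With a replicate block by title number, 0 genes were called, 8 of 8 members were above 0 and the median was 0.54; by the number in the description the median was 0.45. Low counts limit Plin1, Ucp1 and Pck1.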
